A study of Mus musculus with 24 samples.

Results

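Collagens, laminins, elastic fibre genes and a few matrix glycoproteins were followed in testes of wild-type (WT) and NSun2-deficient mice. NSun2 is an RNA cytosine methyltransferase. A gene belonged to the set if its symbol was that of a collagen alpha chain or of a laminin alpha, beta or gamma chain, or was Eln, Mfap2, Mfap4, Mfap5, Lox, Fn1, Dpt, Sparc or Dcn. Fbn1 and Fbn2 were also in the rule, and no probe of that name was used here. The set held 59 of 19057 named genes on the array, each read by the probe with the highest mean over 24 arrays. It comprised 11 fibrillar collagens, 6 type IV collagens, 24 other collagens, 9 laminin chains, 5 elastic fibre genes and 4 other matrix genes. Of these, 53 lay among the 22639 probes bright enough to be tested, which represent 12166 named genes. The other 6 (Col5a3, Col10a1, Col13a1, Col19a1, Col6a6 and Lama4) were above background on 0 of the 24 arrays.

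Total RNA of whole testis was hybridised to Illumina mouse beadchips in 4 groups of 6 arrays, with replicates lettered A to F: WT at 15 days, NSun2 knock-out (KO) at 15 days, WT at 49 days and KO at 49 days. All samples, KO and WT, were from the F1 generation of a cross of CBA with C57BL/6J. The NSun2-/- animals came from embryonic stem cells with a gene trap (line D014D11) or from the line Nsun2tm1a(EUCOMM)Wtsi, and which of them a given sample belongs to is not labelled. Nor is it labelled that arrays are of different animals, so p-values measure the spread between these samples, which may be technical. The number of arrays limits the precision. Values are log2 intensities after background correction and quantile normalisation, and a difference of 1 is a doubling. Levels of different probes are not compared.

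Between 16267 and 19051 probes per array were above background. Nsun2 was above background on 5 of 6 WT arrays at 15 days and 3 of 6 at 49 days, and on none of the 12 KO arrays. It was at least 1.16-fold lower in KO at 15 days (means of normalised values against the lowest level above background; limma adjusted p = 3.06e-04) and at least 1.17-fold lower at 49 days (adjusted p = 5.44e-05). A few arrays stood apart. KO replicate D of 49 days had the lowest round spermatid marker level of its group, 8.13, against 9.57 to 11.73 on the other KO arrays and 12.06 to 12.28 on WT arrays (mean log2 intensity of 14 genes). At 15 days, WT replicate A and KO replicate B had elongating spermatid marker levels of 6.92 and 7.68, against at most 6.07 on the other 10 arrays. KO replicates E and B of 15 days had epididymis marker levels of 7.26 and 6.64, against at most 6.31 on the others. Counts below are therefore also given without these 4 arrays, an alternative chosen after seeing the data.

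Collagens are triple-helical proteins: the fibrillar types form banded fibres of the interstitium, type IV forms the meshwork of basement membranes, and other types decorate fibres, span membranes or form microfilaments. Laminins are trimers of an alpha, a beta and a gamma chain and form the second meshwork of basement membranes, while elastin is deposited on microfibrils and cross-linked by lysyl oxidase. In the testis a basement membrane made by Sertoli and peritubular myoid cells surrounds each seminiferous tubule, and fibrillar collagen and elastic fibres lie in the tubule wall, the interstitium and the capsule.

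Promoters are shown for a pair of members that moved together and for members that went opposite ways with age. They span 250 bases before to 50 after the annotated start and come from RefSeq on build GRCm38.p6, where 41 of the 59 members had an entry. Col4a1 (chr8:11312777-11313076, minus strand) and Col4a2 (chr8:11312555-11312854, plus strand) lie on opposite strands with annotated starts 21 bases apart, so that each annotated transcript runs across the start of the other, and their windows share 78 bases. Col1a2 (chr6:4505368-4505667, plus strand) is shown as a fibrillar collagen that fell with age in WT. Col8a1 (chr16:57754688-57754987, minus strand) and Lamb3 (chr1:193301744-193302043, plus strand) are shown as members that rose with age. Each line reads 5′ to 3′ on the gene's strand. Capitals mark the CCAAT box (CCAAT or its reverse complement ATTGG) and the GC box (GGGCGG or CCGCCC).
Col4a1: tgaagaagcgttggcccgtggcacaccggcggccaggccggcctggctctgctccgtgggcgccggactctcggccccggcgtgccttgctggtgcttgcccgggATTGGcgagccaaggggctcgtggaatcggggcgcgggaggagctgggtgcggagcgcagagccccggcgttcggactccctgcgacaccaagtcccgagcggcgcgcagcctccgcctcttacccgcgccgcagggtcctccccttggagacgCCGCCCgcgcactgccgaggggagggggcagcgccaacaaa
Col4a2: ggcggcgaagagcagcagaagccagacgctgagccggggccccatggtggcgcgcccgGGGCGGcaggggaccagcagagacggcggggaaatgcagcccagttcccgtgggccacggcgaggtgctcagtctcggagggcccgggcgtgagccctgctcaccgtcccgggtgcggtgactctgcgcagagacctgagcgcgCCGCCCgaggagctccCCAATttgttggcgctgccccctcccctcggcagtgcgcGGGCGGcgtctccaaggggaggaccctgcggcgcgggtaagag
Col1a2: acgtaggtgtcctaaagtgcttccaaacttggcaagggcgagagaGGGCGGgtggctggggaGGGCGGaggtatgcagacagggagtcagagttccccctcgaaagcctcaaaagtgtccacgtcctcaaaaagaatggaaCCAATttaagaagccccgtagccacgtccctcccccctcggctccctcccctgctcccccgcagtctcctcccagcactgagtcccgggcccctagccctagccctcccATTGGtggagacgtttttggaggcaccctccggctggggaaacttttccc
Col8a1: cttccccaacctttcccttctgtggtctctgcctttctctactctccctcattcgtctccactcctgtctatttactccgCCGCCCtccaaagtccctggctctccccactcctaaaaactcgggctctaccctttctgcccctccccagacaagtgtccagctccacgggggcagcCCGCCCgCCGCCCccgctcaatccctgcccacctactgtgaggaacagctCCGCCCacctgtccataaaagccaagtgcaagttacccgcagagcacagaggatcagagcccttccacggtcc
Lamb3: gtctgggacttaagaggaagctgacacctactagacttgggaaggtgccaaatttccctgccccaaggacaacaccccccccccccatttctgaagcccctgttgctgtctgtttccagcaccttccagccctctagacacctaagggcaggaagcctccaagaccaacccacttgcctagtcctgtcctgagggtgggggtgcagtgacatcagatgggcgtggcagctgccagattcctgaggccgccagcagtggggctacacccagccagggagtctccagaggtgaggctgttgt

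The Col4a1 window held 1 CCAAT box and 1 GC box, and the Col4a2 window 1 and 3. Col1a2 had 2 of each, Col8a1 had 4 GC boxes and no CCAAT box, and the Lamb3 window had neither. The GC box of Col4a1 (position 10) and the last GC box of Col4a2 (position 8) are the same bases of the shared stretch. These bases lie after the annotated start of either gene. Neither TATAAA, searched on the gene's strand, nor the cAMP response element TGACGTCA was found in these 5 windows, and no motif overlapped another. Over the 41 members with an entry, 63.4% had a GC box, 31.7% a CCAAT box, 14.6% TATAAA and 2.44% the cAMP response element. Over all 27025 promoters of the table the shares were 35.9%, 37.9%, 8.88% and 1.88%. A GC box was in 63.6% of the 22 windows of members that fell with age in WT and in 62.5% of the 8 windows of members that rose. The windows of members also had more G and C, with a median of 60.0% against 52.7% over the table.

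**Figure D1:**
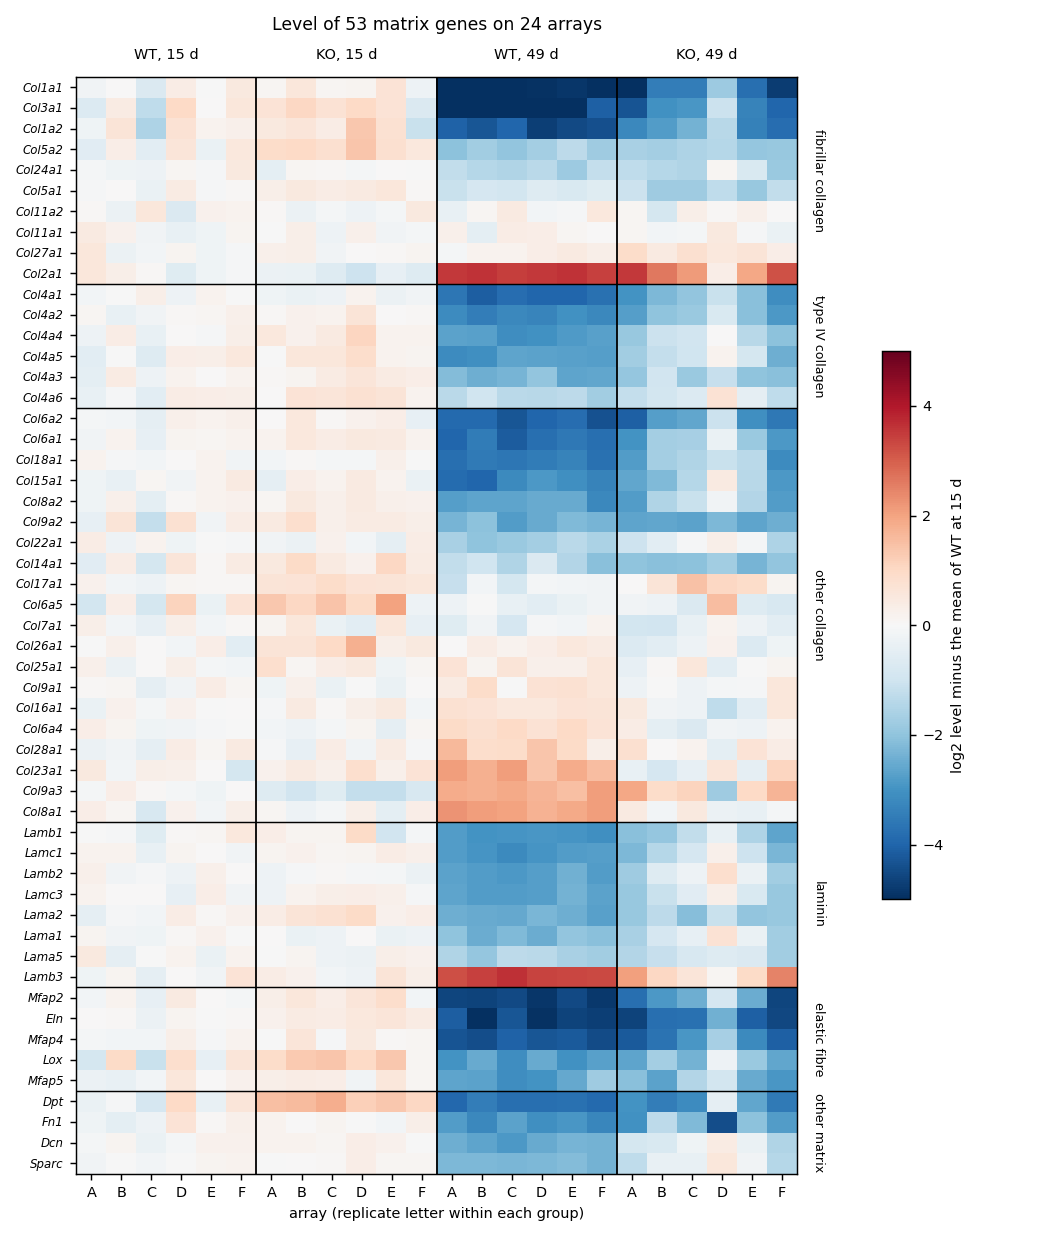
Level of the 53 tested matrix genes (vertical axis, grouped by role) on each of 24 arrays (horizontal axis, 4 groups of 6 replicates), as log2 intensity minus the gene's mean over the WT arrays of 15 days, with colours capped at 5 in either direction. Most genes are blue on the WT arrays of 49 days, Col2a1 and Lamb3 are red there, and KO replicate D of 49 days is the palest of its group for most genes.

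Between 15 and 49 days most matrix genes fell in WT testis. Of the 53 tested members, 36 were lower and 10 higher at 49 days (limma, Benjamini-Hochberg adjusted p under 0.05, two-sided), where 53.8% of all tested probes were lower and 27.5% higher (81.3% called). The median change was -2.36 over the members and -0.54 over all probes tested. For 35 members every array of 49 days lay below every array of 15 days and for 7 every array lay above, against 46.2% and 24.4% of all probes. In whole-tissue RNA fewer cells of a type and less RNA per cell cannot be told apart. From 15 to 49 days all 13 elongating and 12 of 13 tested round spermatid markers rose in the same arrays, and 1 round spermatid marker fell. Of somatic lists, 14 of 16 Sertoli and 8 of 9 peritubular myoid markers fell, and 1 of each list rose. Among fibroblast and interstitial mesenchyme markers 5 of 6 fell, and among macrophage and leukocyte markers 7 of 10, with 0 rising in either list. Endothelial markers fell for 8 of 9 and rose for 1, while 6 of 7 Leydig markers rose and 1 fell. The part of these cell types in the changes was not tested. Without the 4 arrays that stood apart the counts were 36 lower and 11 higher.

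Among the fibrillar collagens, 6 of 10 fell and 1 rose. Col1a1, which encodes an alpha chain of type I collagen, the main collagen of the interstitium, had a lowest, median and highest log2 intensity of 11.71, 12.42 and 12.90 at 15 days and of 7.09, 7.26 and 7.56 at 49 days. The age groups lay far apart, with a change of -5.13 (SE 0.35, adjusted p = 9.29e-12). Col1a2, the partner chain, ran from 8.69 over a median of 10.44 to 10.95 at 15 days and from 5.52 over 5.88 to 6.28 at 49 days, where no array was above background. Its fall, with group means of 10.23 and 5.91, was therefore at least 12.5-fold (adjusted p = 1.05e-09). Col3a1, type III collagen, was between 9.46 and 11.71 at 15 days and between 5.38 and 6.65 at 49 days, with 1 of 6 arrays above background at the later age (change -4.98, SE 0.44). Col5a1, a chain of type V collagen that governs fibril thickness, changed far less, from a mean of 11.40 ± 0.25 to 10.59 ± 0.18 (SD, n = 6 each; change -0.81, adjusted p = 3.05e-05). Its partner Col5a2 was on no array above background at 49 days and fell at least 1.34-fold (means 7.01 and 5.26). Col24a1 was also below background at 49 days and fell at least 1.92-fold (means 7.53 and 6.12).

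Col2a1, the fibrillar collagen best known from cartilage, went the other way. Its levels at 15 days were 6.21 at the lowest, 6.83 in the median and 7.38 at the highest, with 5 of 6 arrays above background, and those at 49 days were 10.24, 10.34 and 10.45. The groups did not overlap, and the gene rose by 3.52 (SE 0.34, adjusted p = 1.86e-09). Lamb3, a laminin beta chain known from epithelial anchoring, was above background on none of the 15-day WT arrays and on all 6 at 49 days (8.68, 8.84 and 9.12 for the lowest, median and highest). It rose at least 5.63-fold (means 5.47 and 8.86; adjusted p = 2.87e-10). Col8a1, a short-chain network-forming collagen, rose by 2.01 (SE 0.19), from between 6.18 and 7.31 to between 8.71 and 9.25.

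Further members that rose with age in WT were Col9a3, a collagen of fibre surfaces (change 1.80), and Col23a1, a membrane-spanning collagen (1.79). Col28a1 rose by 1.01, Col6a4 by 0.86, Col16a1 by 0.64, Col9a1 by 0.55 and Col25a1 by 0.43. Among these Col9a1 and Col25a1 were above background on none of the 15-day arrays, and on 2 and 1 of 6 at 49 days, and the groups of Col9a1, Col25a1 and Col28a1 overlapped. The Col25a1 call was lost in 7 alternatives, among them without any one of WT replicates B, E or F of 15 days or A, C or F of 49 days (adjusted p at most 0.0751).

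All 6 type IV collagens fell in WT. Col4a1 ran from 13.20 over a median of 13.42 to 13.74 at 15 days and from 9.34 over 9.57 to 9.85 at 49 days. Col4a2, its neighbour and trimer partner, ran from 12.29 over 12.73 to 12.92 and from 9.19 over 9.41 to 9.61. Neither gene's groups overlapped, and the changes of this pair were -3.86 and -3.24 (SE 0.23 each). The second pair fell by 2.36 (Col4a3) and 2.86 (Col4a4), and in the X-linked pair Col4a5 fell by 2.82. Col4a6 was below background on all WT arrays of 49 days and fell at least 1.25-fold (means 6.92 and 5.57).

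Of the 8 tested laminin chains, 7 fell in WT. Lamc1, the gamma chain shared by most laminins, fell by 2.90 and Lamb2 by 2.72, while the changes of the alpha chains were -2.21 for Lama1, -2.49 for Lama2 and -1.59 for Lama5. Lamb1 was below background on all arrays at 49 days and fell at least 2.79-fold (means 8.07 and 5.13). All 5 elastic fibre genes fell. Eln, which encodes elastin, was at 11.02, 11.33 and 11.45 (lowest, median and highest) at 15 days and at 6.26, 6.63 and 7.19 at 49 days, with 2 of 6 arrays above background at the later age. The groups lay far apart (change -4.62, SE 0.25, adjusted p = 4.45e-13). Mfap2, a microfibril protein, fell at least 13.2-fold (means 10.31 and 5.66), being below background at 49 days. Mfap4, another microfibril-associated protein, fell by 4.29 and Mfap5 by 2.62. Lox, the cross-linking lysyl oxidase, was below background at 49 days and fell at least 3.03-fold (means 8.19 and 5.39).

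The 4 other matrix genes fell as well. Dpt, dermatopontin, which binds decorin and collagen fibres, fell at least 4.76-fold (means 8.84 and 5.09) and was below background on all arrays of 49 days. Fn1, fibronectin, fell by 2.99. Dcn, the collagen-binding proteoglycan decorin, fell by 2.53 and Sparc, a collagen-binding glycoprotein, by 2.26. Among the remaining collagens, the changes were -3.79 and -4.04 for the type VI chains Col6a1 and Col6a2, and -3.38 and -3.58 for the basement membrane zone collagens Col15a1 and Col18a1. The members that did not pass the test on the probe used were Col6a5, Col7a1, Col11a1, Col11a2, Col17a1, Col26a1 and Col27a1, with changes between -0.43 and 0.32. Another probe of Col27a1 rose by 1.62 (adjusted p = 1.44e-06). One other probe of Col17a1 rose by 0.68 (adjusted p = 0.0015), and a further one did not pass (-0.29).

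At 49 days most of these genes were higher in KO than in WT testis. Of the 53 tested members, 31 were higher, 13 lower and 9 did not pass, where 41.8% of all probes were higher and 27.5% lower (69.3% called). The median difference was 0.76 over the members and 0.21 over all probes tested. For 17 members every KO array lay above every WT array and for 4 every KO array lay below, against 19.7% and 14.7% of all probes. With cyclic loess in place of quantile normalisation the split was 23 higher and 15 lower, the median of all probes moved from 0.21 to -0.11, and that of the members from 0.76 to 0.37. Without the 4 arrays that stood apart, 30 were higher and 12 lower.

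All 6 type IV collagens were higher in KO. Col4a1 was at 9.34, 9.57 and 9.85 (lowest, median and highest) on WT arrays and at 10.35, 11.29 and 12.36 on KO arrays. Every KO array lay above the WT arrays (difference 1.61, SE 0.23, adjusted p = 3.8e-06). Col4a2 followed with WT levels of 9.19, 9.41 and 9.61 and KO levels of 9.78, 10.61 and 11.90, again without overlap (1.19, SE 0.23). Of the second pair, Col4a4 was higher by 1.63 without overlap and Col4a3 by 0.70 with overlap. Of the X-linked pair, Col4a5 was higher by 1.64 without overlap, and Col4a6, above background on 0 WT and 2 KO arrays, by 0.71 on the fitted scale (adjusted p = 0.0157), or 0.45 without KO replicate D (adjusted p = 0.043). With cyclic loess Col4a3 and Col4a6 no longer passed (adjusted p of 0.187 and 0.106).

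Among the laminins, 7 of 8 chains were higher and 1 was lower. Lamb2, the beta chain of adult basement membranes, read 9.38, 9.5 and 9.85 on WT arrays and 10.50, 11.81 and 13.12 on KO arrays. The groups did not overlap, and the difference was 2.09 (SE 0.29, adjusted p = 3.28e-06). Lamc3, another gamma chain, was higher by 1.69, Lamc1 by 1.64, Lama1 by 1.51, Lama2 by 0.78 and Lamb1 by 1.31, each without overlap, and Lama5 by 0.50 with overlap. The Lama5 call was lost in 8 alternatives, among them without WT replicate B or KO replicate C, D or E (adjusted p of up to 0.478, with cyclic loess), and Lama2 did not pass with cyclic loess (adjusted p = 0.0671). Lamb1 was above background on 0 WT and 3 KO arrays. Lamb3 was the exception, with WT levels from 8.68 over 8.84 to 9.12 and KO levels from 5.56 over 6.48 to 7.95. Every KO array lay below the WT arrays, 4 of 6 were above background, and the difference was -2.18 (SE 0.29, adjusted p = 2.17e-06).

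Of the 10 fibrillar collagens, 4 were higher and 2 lower. Col1a1 ran from 7.09 over 7.26 to 7.56 on WT arrays and from 7.40 over 8.79 to 10.62 on KO arrays. The lowest KO array lay within the WT range, and the difference was 1.41 (SE 0.35, adjusted p = 0.00111). Col3a1 was at 5.38, 5.60 and 6.65 in WT and at 6.41, 7.56 and 9.66 in KO, with one KO array below the highest WT array (1.88, SE 0.44, adjusted p = 6.54e-04). Col1a2, below background on the WT arrays, was at least 1.76-fold higher in KO (means 5.91 and 7.40; adjusted p = 0.00213), but its call was lost without background correction (adjusted p = 0.0817). Col27a1 was higher by 0.39, a call lost with cyclic loess (0.23, adjusted p = 0.151) and for the mean of its tested probes (0, adjusted p = 0.99). Col5a1 and Col2a1 were lower, by different patterns. Col5a1 read 10.30, 10.60 and 10.78 in WT and 9.52, 9.87 and 10.34 in KO (difference -0.69, SE 0.15, adjusted p = 3.66e-04), with one KO array within the WT range. Its KO mean of 9.9 lay below both the younger and the adult WT mean. Col2a1 ran from 10.24 to 10.45 on WT arrays and from 7.15 over 9.21 to 10.35 on KO arrays, with 5 of 6 KO arrays below the WT arrays (-1.23, SE 0.34). Col5a2, Col11a1, Col11a2 and Col24a1 did not pass, with differences between -0.11 and 0.29.

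The other collagens were split, with 7 of 20 higher and 10 lower. Those without overlap that were higher were Col6a1 (difference 1.89), Col15a1 (1.72), Col18a1 (1.65) and Col17a1, a membrane-spanning collagen (1.13). Col22a1, found at tissue junctions, was higher by 1.20 and Col6a2 by 1.19, both with overlap. Col8a2, below background on all WT and above it on 4 of 6 KO arrays, was at least 1.18-fold higher (means 5.75 and 6.83). On the lower side, Col8a1 read 8.71, 9.04 and 9.25 in WT and 6.62, 6.86 and 7.47 in KO. Its groups were far apart (-2, SE 0.19, adjusted p = 6.31e-08), and the KO mean of 7 was close to the 15-day WT mean of 6.99. The difference was -1.86 for Col23a1 and -1.04 for Col6a4, both without overlap. Col23a1 was above background on 2 of 6 KO arrays, so the size of its difference is on the fitted scale. Differences with overlapping groups were -0.99 for Col9a3, -0.84 for Col16a1, -0.75 for Col28a1, -0.67 for Col26a1, -0.57 for Col9a1 and -0.47 for Col25a1. Col9a3 moved to -0.47 without KO replicate D (adjusted p = 0.0197) and did not pass in a fit of the 49-day arrays alone (adjusted p = 0.0974). The Col25a1 call was lost in 7 alternatives, among them without WT replicate A or C or KO replicate A or D (adjusted p at most 0.0685). Col14a1 was above background on 3 WT arrays and no KO array, at least 1.04-fold lower (means 6.45 and 5.76).

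Of the 5 elastic fibre genes, 4 were higher in KO and none lower, all with overlapping groups. Mfap2 was below background on the 6 WT arrays (5.44, 5.72 and 5.82) and above it on 5 of 6 KO arrays (5.72, 7.63 and 9.48), at least 1.85-fold higher (means 5.66 and 7.48; adjusted p = 1.76e-04). Eln read 6.26, 6.63 and 7.19 in WT and 6.65, 7.38 and 8.89 in KO (difference 0.76, SE 0.25, adjusted p = 0.0108). Most KO levels of Eln stayed far below its 15-day levels, and the difference was 0.47 without KO replicate D (adjusted p = 0.0225). Mfap4 was higher by 1.00. Lox, above background on 0 WT and 2 KO arrays, differed by 0.90 on the fitted scale (adjusted p = 0.0372). This call was lost in 12 alternatives, among them without WT replicate A, C or E or KO replicate B, D or E, and the difference without KO replicate D was 0.58 (adjusted p = 0.121). Eln and Lox did not pass with cyclic loess (adjusted p of 0.174 and 0.278).

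Of the other matrix genes, Dcn and Sparc were higher in KO without overlap. Dcn was at 11.64, 12.02 and 12.16 in WT and at 12.98, 13.94 and 14.90 in KO (difference 1.98, SE 0.21, adjusted p = 1.4e-07). Sparc read 12.29, 12.39 and 12.46 in WT and 13.22, 14.26 and 15.19 in KO (1.75, SE 0.21, adjusted p = 9.52e-07). For both genes the highest KO array exceeded the highest WT array of 15 days. Dpt, above background in WT on 0 arrays and in KO on replicate D alone, differed by 1.06 on the fitted scale (adjusted p = 0.0152), and by 0.62 without that array (adjusted p = 0.0301). With cyclic loess it did not pass (adjusted p = 0.198). Fn1 ran from 5.57 over 7.49 to 8.68 in KO and from 6.72 over 7.01 to 7.33 in WT and did not pass (0.35, adjusted p = 0.334). Its lowest KO value was on replicate D, the array where most other members were highest, and without it Fn1 was higher in KO by 0.71 and passed (adjusted p = 0.0105).

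**Figure D2:**
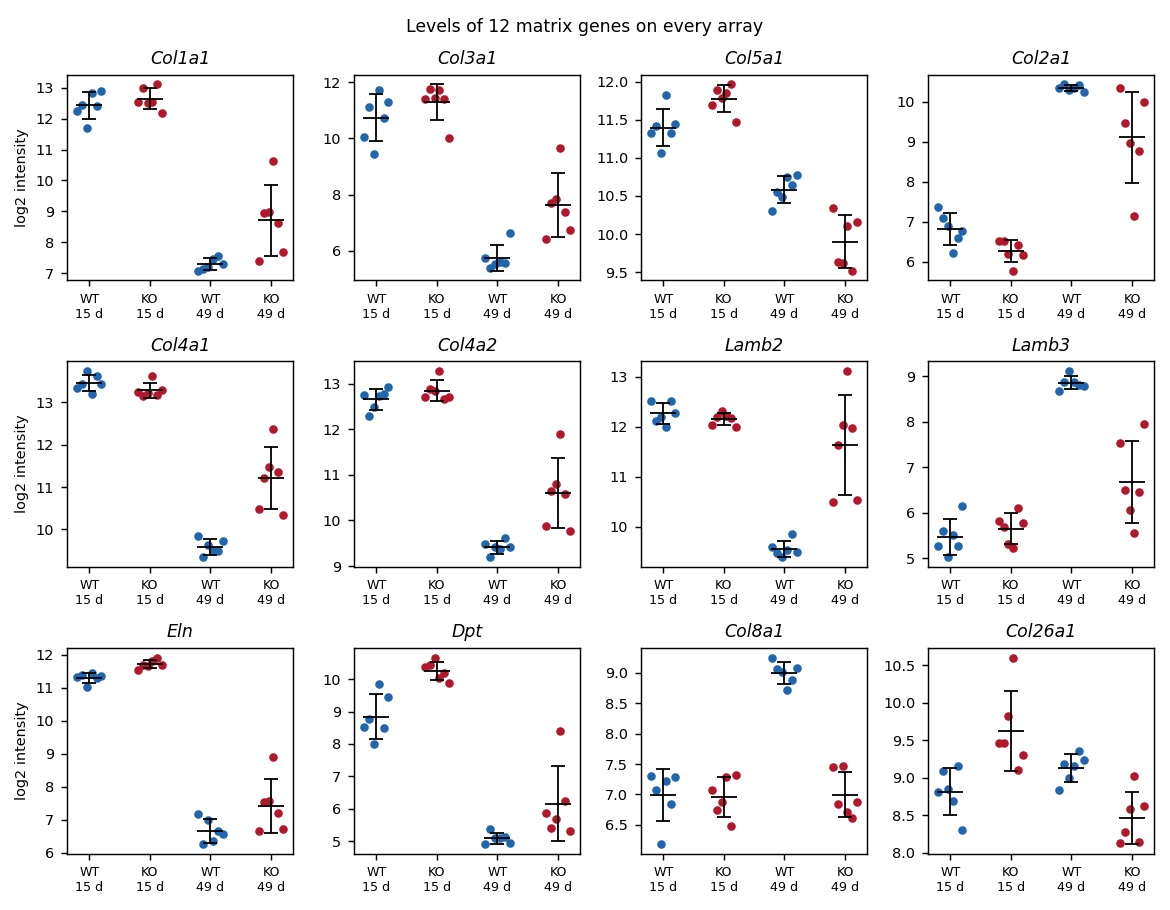
Log2 intensity (vertical axes) of 12 matrix genes on every array, with WT in blue and KO in red at 15 and 49 days (horizontal axes). Bars give the mean and SD of 6 arrays. KO arrays of 49 days scatter more than the other groups for most of these genes, Col8a1 and Col26a1 excepted. They lie above WT for Col4a1, Col4a2 and Lamb2 and below WT for Lamb3 and Col8a1.

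The KO arrays of 49 days differed among themselves more than any other group. The median SD over the 53 members was 0.74 there, against 0.22 to 0.29 in the other groups, and over all tested probes it was 0.54 against 0.19 to 0.24. Of the 31 members that were higher in KO, replicate D had the highest KO level for 28. Replicate F had the lowest for 20 and replicate A for 10. The median difference of these 31 members from the WT mean was 2.81 on replicate D, 1.81 on C, 1.38 on B and on E, 0.66 on A and 0.44 on F. The 13 lower members had medians of -1.18 on D and -0.51 on F. Some marker lists followed this order and others did not. The Sertoli marker level exceeded the WT mean by 2.72 on D and by 0.84 and 0.85 on A and F, and the round spermatid level differed from it by -4.06 on D and by -0.58 and -0.46 on A and F. Leydig, myoid, macrophage, endothelial, fibroblast and red blood cell levels were likewise highest on D. The spermatogonial level, in contrast, was lowest on D (6.98) and highest on C (8.01), with 7.28 on A and 7.18 on F, and the early meiotic level was 6.95 on D and 8.42 to 9.22 on the others. Epididymis levels stayed between 5.61 and 5.81. The part of these cell types in the matrix gene differences was not tested.

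**Figure D3:**
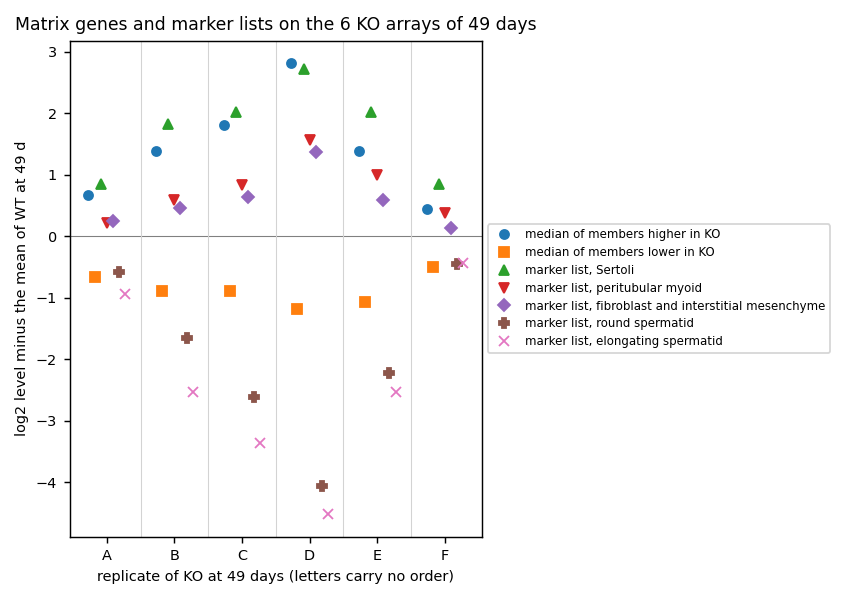
Difference from the WT mean of 49 days (vertical axis, log2) on each of the 6 KO arrays of that age (horizontal axis), for the median of the matrix genes that were higher or lower in KO and for the mean level of 5 marker lists. Replicate D is highest for the raised genes and Sertoli markers and lowest for spermatid markers, and A and F are nearest to 0.

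Over the whole lists, all 16 tested Sertoli markers were higher in KO at 49 days (median difference 1.67; level 9.58 to 9.96 in WT and 10.65 to 12.53 in KO). Among peritubular myoid markers 7 of 9 were higher and 1 lower (8.56 to 8.70 and 8.87 to 10.22). Of 6 tested fibroblast and interstitial mesenchyme markers 3 were higher, Pdgfra by 2.34, Tcf21 by 1.75 and Cd248 by 0.94, and 1 lower, Pi16 by a difference of -1.05 (6.63 to 6.79 and 6.84 to 8.07). Of the others, 6 of 7 Leydig, 9 of 10 macrophage and leukocyte, 6 of 9 endothelial, 6 of 11 spermatogonial and 2 of 3 red blood cell markers were higher and none lower. Of round spermatid markers 12 of 13 and of elongating spermatid markers 11 of 13 were lower, with 6 of 11 pachytene, 2 of 9 early meiotic and the 1 tested fat marker, and none of these was higher. None of the 3 tested epididymis markers passed. Over all tested probes 41.8% were higher and 27.5% lower.

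At 15 days few matrix genes separated KO from WT in the fit of all 24 arrays. That fit shares its estimate of the spread over all groups, so the scatter of adult KO enters the 15-day standard errors and p-values. The median SD of the members was 0.74 in adult KO, against 0.29 in WT and 0.27 in KO at 15 days. Of the 53 tested members, 3 were higher in KO and 0 lower, where 1.1% of all probes were higher and 3.09% lower (4.19% called). The median difference was 0.20 over the members and 0.01 over all probes tested. The arrays did not overlap for 3 members that were higher (Dpt, Eln and Col17a1) and 1 that was lower (Col9a3), against 3.66% and 5.51% of all probes. The count was 8 when the fit held only the 12 arrays of this age (7 higher, 1 lower), 9 with array quality weights (8 higher, 1 lower), and 4 without the 4 arrays that stood apart (3 higher, 1 lower). Leaving out single arrays gave 1 member without WT replicate A or C or KO replicate C or D of 15 days, and 8 without KO replicate D of 49 days.

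Dpt had WT levels of 7.99 at the lowest, 8.65 in the median and 9.85 at the highest, and KO levels of 9.88, 10.27 and 10.66. The groups did not overlap, and Dpt was higher by 1.42 (SE 0.37, adjusted p = 0.0313). This call was lost without any one of WT replicates A, B, C and E or KO replicates A to E (adjusted p at most 0.0947), and it held without the 4 arrays that stood apart (1.32, adjusted p = 0.00751). Col5a2 read 6.43, 7 and 7.64 in WT and 7.55, 7.88 and 8.41 in KO, with one KO array below the highest WT array (0.91, SE 0.20, adjusted p = 0.00966). It passed in every one of 37 alternatives, at 0.80 without the 4 arrays (adjusted p = 0.0439). Col26a1, a collagen described from testis and ovary, read 8.30, 8.83 and 9.16 in WT and 9.10, 9.47 and 10.60 in KO, with the lowest KO array under the highest WT array (0.81, SE 0.21, adjusted p = 0.0252). The Col26a1 call was lost without WT replicate A, C or F or KO replicate C or D (adjusted p at most 0.072), and for the mean of its tested probes (0.47, adjusted p = 0.118).

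Members that missed the threshold at 15 days included Eln, with 11.02, 11.33 and 11.45 in WT and 11.53, 11.69 and 11.91 in KO. Its arrays did not overlap (0.42, SE 0.25), but the adjusted p was 0.416 over all 24 arrays and 0.00995 in the fit of the 12 arrays of 15 days. The SD of Eln was 0.15 in WT and 0.13 in KO at 15 days, and 0.81 in adult KO, which enters the fit of all 24 arrays. Col9a3 ran from 10.52 over 10.69 to 11.08 in WT and from 9.53 over 9.85 to 10.14 in KO, also without overlap (-0.89, adjusted p = 0.194), and passed in the fit of 12 arrays (adjusted p = 0.00105). Col17a1 differed by 0.69 (adjusted p = 0.0681), Lama2 by 0.54 (adjusted p = 0.0728), Lox by 1.00 (adjusted p = 0.136) and Col6a5 by 1.09 (adjusted p = 0.118). None of the 6 type IV collagens passed, with differences from -0.18 for Col4a1 to 0.48 for Col4a6, and none of the 8 laminins.

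Several marker lists also differed between the 15-day groups. Over all tested probes 1.1% were higher in KO and 3.09% lower. Of pachytene spermatocyte markers 7 of 11 were lower in KO, including Ldhc (-4.47), with list levels of 8.06 to 10.04 in WT and 6.07 to 7.81 in KO. Early meiotic and round spermatid markers were lower for 2 of 9 and 2 of 13, and 1 of 11 spermatogonial markers, Id4, was lower. Higher in KO were Ctsl among 16 Sertoli markers and Lyz2 and Vsig4 among 10 macrophage markers. The fibroblast and interstitial mesenchyme list had 0 of 6 passing, with levels of 8.27 to 8.51 in WT and 8.49 to 8.81 in KO, and no Leydig, myoid, endothelial, epididymis, fat, red blood cell or elongating spermatid marker passed. The part of these cell types in the 15-day differences was not tested.

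**Figure D4:**
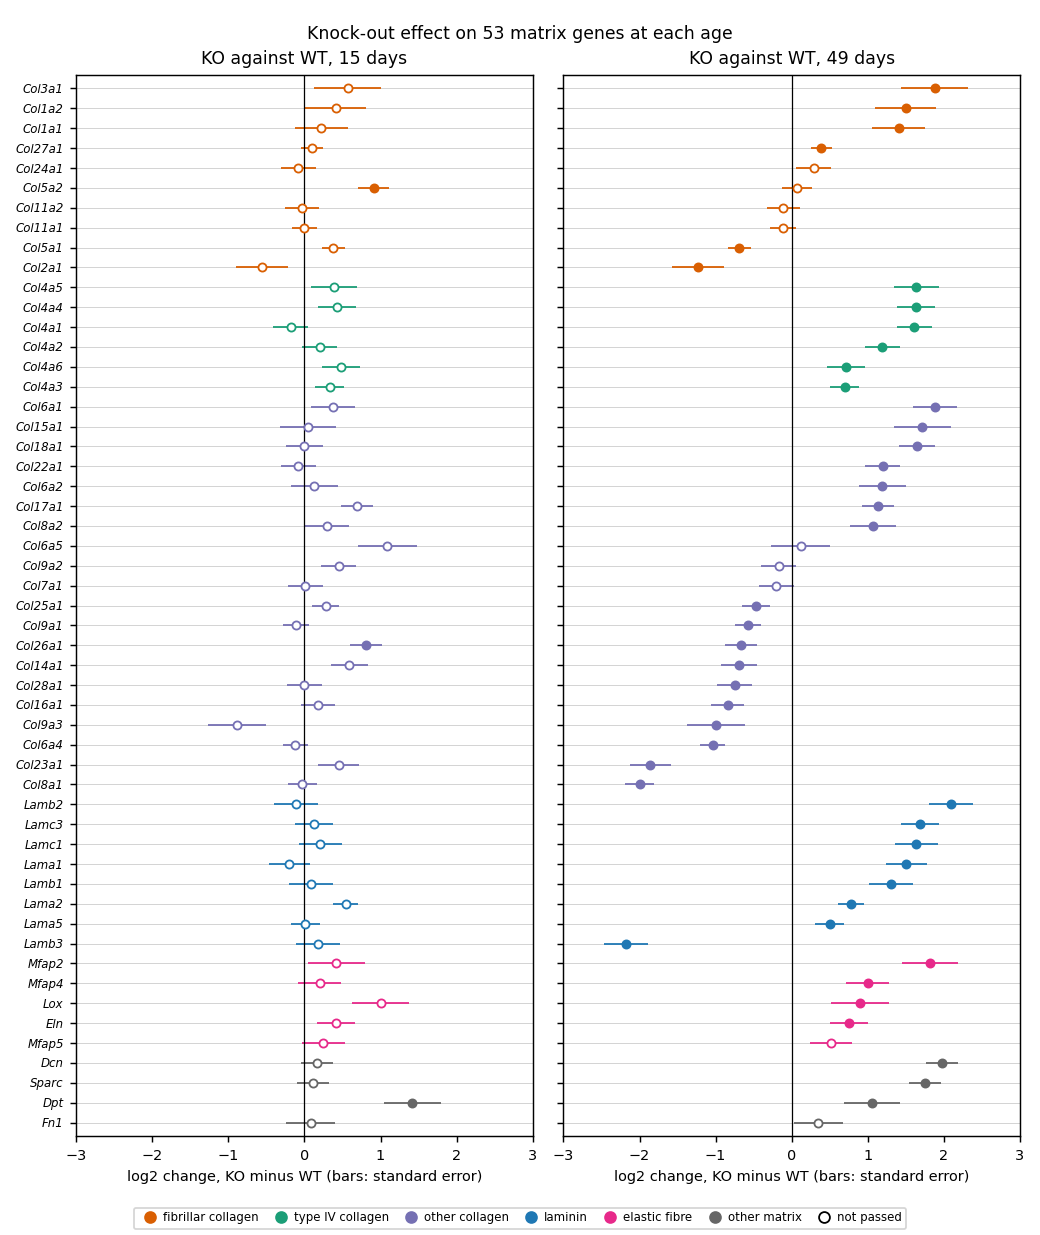
Log2 difference between KO and WT (horizontal axes, bars give the SE) of the 53 tested matrix genes (vertical axis) at 15 days on the left and 49 days on the right. Filled points passed an adjusted p of 0.05 in limma: 3 genes at 15 days and 44 at 49 days, with all type IV collagens and 7 of 8 laminins to the right of 0 at 49 days.

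In KO testis the matrix genes also fell with age. From 15 to 49 days 35 of 53 members were lower and 4 higher, where 36.2% of all probes were lower and 21.6% higher (57.8% called). The median change was -1.47 over the members and -0.22 over all probes. The arrays did not overlap for 25 lower and 2 higher members, against 16.3% and 11.3% of all probes. Without the 4 arrays that stood apart, 39 were lower and 4 higher, and without KO replicate D of 49 days alone 40 were lower and 4 higher. The change of Eln was -4.28 in KO and -4.62 in WT, and that of Dpt in KO was -4.11 on the fitted scale, with 1 of 6 KO arrays above background at 49 days. Col1a1 changed by -3.93 in KO and Mfap4 by -3.48. Genes below background at 49 days fell at least 4.14-fold (Col9a2, means 8.44 and 5.45), 3.99-fold (Col14a1, 8.38 and 5.76) and 2.90-fold (Col5a2, 7.92 and 5.33).

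The fall in KO did not pass for some basement membrane members, and this rested on replicate D of 49 days. Lamb2 was at 11.99, 12.19 and 12.32 (lowest, median and highest) at 15 days and at 10.50, 11.81 and 13.12 at 49 days in KO. The later arrays lay on both sides of the earlier ones (-0.52, SE 0.29, adjusted p = 0.122). Lama1 was at 10.90 to 11.25 and at 9.5 to 11.95 (-0.51, adjusted p = 0.109). Without replicate D both passed, Lamb2 at -0.82 (adjusted p = 0.00245) and Lama1 at -0.78 (adjusted p = 0.00174). Dcn fell by 0.71 and Sparc by 0.61 (adjusted p = 0.017), and the call for Sparc was lost without KO replicate A or F of 49 days and in a fit of the KO arrays alone (adjusted p = 0.0931). Of the members that rose in WT, Col2a1 rose by 2.85 and Col9a3 by 1.71 in KO. Lamb3, below background on all 15-day KO arrays, was at least 1.24-fold higher at 49 days (means 5.66 and 6.68). Col8a1 had a change of 0.04 and Col23a1 of -0.52 in KO, and neither passed. Without replicate D Col23a1 passed (-0.66, adjusted p = 0.0326), with only replicate F of the remaining adult KO arrays above background. Col27a1 rose by 0.52.

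For 28 members the KO effect differed between the ages, tested as the difference of both effects. It was more positive at 49 days for 18 members and more negative for 10, where 30.6% and 18.2% of all probes passed in these directions (48.8% called). Cyclic loess gave 12 and 11, and leaving out the background correction 11 and 10. More positive were Lamb2 (2.20, SE 0.41), Dcn (1.82), Col4a1 (1.79), Lama1 (1.70), Col15a1 (1.67), Col18a1 (1.65), Sparc (1.64) and Lamc3 (1.55). More negative were Lamb3 (-2.36, SE 0.41), Col23a1 (-2.31), Col8a1 (-1.98), Col26a1 (-1.48) and Col5a1 (-1.07). Of the others that passed, Col5a2 was below background in both adult groups and Col14a1 in adult KO, so the size of their KO effect at 49 days was not measured. Lamb3 was below background in both 15-day groups, and Mfap2 and Lamb1 in adult WT, and their values are on the fitted scale. So is that of Col23a1, above background on 2 of 6 adult KO arrays. Col26a1 was higher in KO at 15 days and lower at 49 days. Among elastic fibre genes the difference passed for Mfap2 (1.40, adjusted p = 0.0308) and not for Eln (0.34), Mfap4 (0.80), Mfap5 (0.27) or Lox (-0.10). Neither of the other tested Mfap2 probes passed (-0.04, adjusted p = 0.928, and 0.52, adjusted p = 0.294). The Mfap2 call was lost in 10 alternatives, among them without WT replicate D or KO replicate F of 15 days, or KO replicate C or E of 49 days, with an adjusted p of up to 0.308 over the alternatives, which came without background correction. Differences close to the threshold were those of Col1a1 (1.19, adjusted p = 0.0488) and Col6a2 (1.06, adjusted p = 0.0494), lost in 24 and 27 of 36 alternatives.

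The adult KO mean lay between the 15-day and the 49-day WT mean for 39 of the 53 members, below both for 12 and above both for 2. Over all tested probes 72.4% lay between, 16.5% below both and 11.1% above both. All type IV collagens, laminins, elastic fibre genes and the 4 other matrix genes lay between. Those below both were 3 fibrillar and 9 other collagens, Col5a1, Col14a1 and Col26a1 among them, and those above both were Col27a1 and Col17a1. Adult KO was not tested against 15-day WT, so these places describe means only. For Col11a1, Col11a2, Col9a1 and Col25a1 the KO mean was within 0.04 of the nearer WT mean. The gap was 0.07 for Col23a1 and at most 0.2 for Col16a1, Col6a4 and Col7a1. Col9a2 was below background in both adult groups. The place of these genes below both has no support beyond the spread of the arrays. For Col26a1 the adult KO arrays (8.13 to 9.03) overlapped the 15-day WT arrays (8.30 to 9.16). One other probe of Col27a1 and one of Col17a1 differed by -0.40 and -0.36 between adult KO and WT, without passing. By their calls, 26 members fell with age in WT, were higher in adult KO than in adult WT, and fell with age in KO, a pattern of 21.8% of all tested probes. A further 3, Col22a1, Lama1 and Lamb2, did the same except that the fall in KO did not pass (17.1% of all probes). For all of them this rested on replicate D, without which Col22a1 also fell in KO (-0.57, adjusted p = 0.023). Another 7, among them Col8a1, Col23a1 and Col16a1, rose with age in WT and were lower in adult KO, and did not pass between the ages in KO (7.09% of all probes). Of these, Col23a1 passed as lower with age in KO when replicate D was left out, with only replicate F of adult KO then above background. Col5a1 and Col14a1 were lower in all 3 comparisons (0.252% of all probes), but parts of this depended on the processing. The fall of Col5a1 in WT was -0.01 with cyclic loess (adjusted p = 0.978). That of Col14a1 was -0.37 for the mean of its probes (adjusted p = 0.0992), its second probe rose, and its call in adult KO was lost without background correction (adjusted p = 0.105). Across the 53 members the age change in WT and that in KO, which share no arrays, had a Pearson r of 0.86 and a Spearman rho of 0.85, given as a description, since the members share arrays within a genotype. The change had the same sign in both genotypes for 46 members and was smaller in size in KO for 43. These values were not computed over all probes, so they are not shown to be particular to the matrix genes. The median age change of all tested probes was also smaller in KO, -0.22 against -0.54 in WT.

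**Figure D5:**
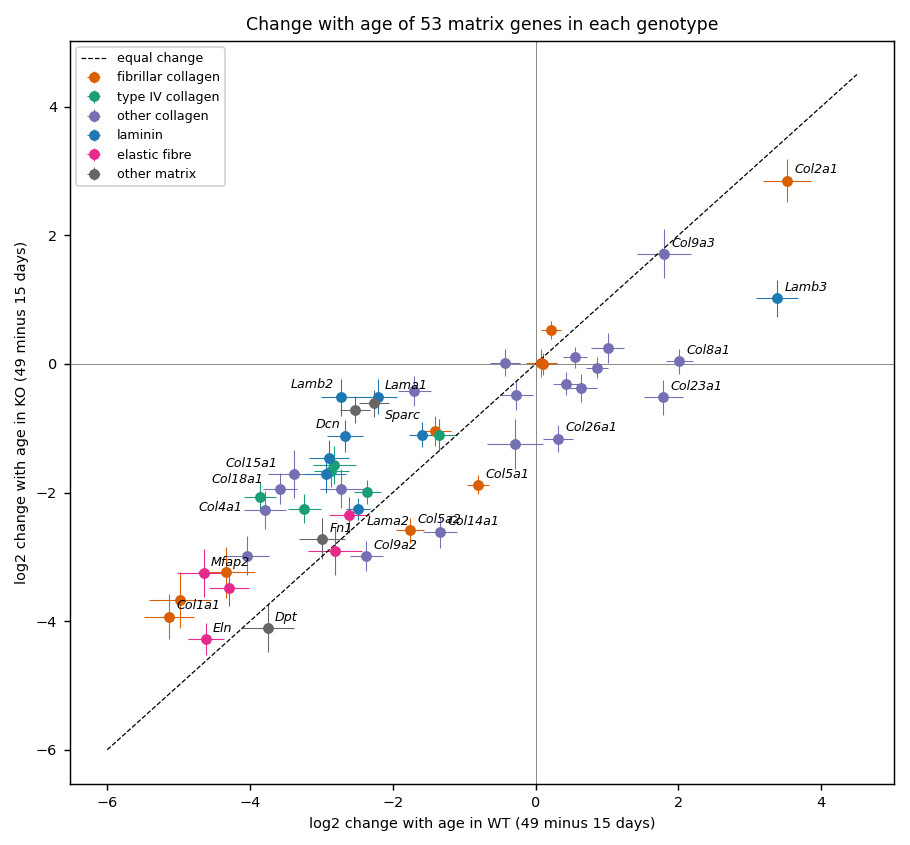
Log2 change from 15 to 49 days in WT (horizontal axis) and in KO (vertical axis) of the 53 tested matrix genes, coloured by role, with SE bars and a dashed line of equal change. Most falling genes lie above the line, such as Lamb2 at -2.72 in WT and -0.52 in KO, while Eln, Dpt and Col2a1 lie nearer to it, and Col8a1 and Lamb3 lie below it.

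Genes that build, cross-link, bind or break down the matrix were counted in the same fit. The counts stand beside 41.8% of all tested probes higher in KO at 49 days and 27.5% lower, with a median of 0.21. At 49 days, of 18 tested genes of collagen processing and cross-linking, 13 were higher in KO and 2 lower, with a median of 1.03. Higher were Plod2, a collagen lysyl hydroxylase (1.72), Colgalt1, which glycosylates collagen (1.61), and P3h4 (1.55), and lower were Pcolce2 (-1.63) and P3h2 (-0.92). Of 9 basement membrane partners 5 were higher and none lower (median 0.50), among them Agrn, agrin (1.71), Hspg2, perlecan (1.07), and Nid1, which links laminin to type IV collagen (0.86). Of 9 elastic fibre partners 6 were higher and 1 lower (median 0.75): Ltbp1 (1.97), Ltbp4 (1.76) and Ltbp3 (1.47), which bind latent TGF-beta, were higher and Emilin2 was lower (-2.17).

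Of 8 proteoglycans, 4 were higher and 1 lower (median 0.84), beside 41.8% higher and 27.5% lower over all probes. Prelp was at 1.91, Ogn at 1.80, Bgn, biglycan, at 1.45 and Lum, lumican, at -1.38. Among 13 breakdown enzymes and inhibitors 9 were higher and 1 lower (median 1.5). These included the inhibitors Timp1 (2.48) and, in the other direction, Timp4 (-1.90), with the proteases Mmp11 (2.09) and Mmp23 (2.02, both on the fitted scale) below background in WT. Of 15 matrix receptors 9 were higher and 2 lower (median 1.17), with the integrin chains Itga3 at 1.63 and Itga9 at 1.55, the collagen receptor Ddr1 at 1.57, and Itga1 (-1.76) and Itga7 (-0.94) lower. Of 14 matricellular and TGF-beta genes 10 were higher and 1 lower (median 1.20), with Sparcl1 at 1.78, Ccn4 at 1.48, Tgfbr3 at 1.40 and Tnc, tenascin C, at -0.97. At 15 days, where 4.19% of all probes passed, 1 gene of these 7 lists did, the proteoglycan gene Bcan (0.77, adjusted p = 0.0408).

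The calls rest on one probe per gene, and 29 other probes of 20 members were also bright enough to test. At 49 days 22 of them had the same call as the main probe, at 15 days 26, for age in WT 26, for age in KO 27 and for the difference 19. One probe had the opposite call: the second probe of Col14a1 was higher at 49 than at 15 days in WT (0.60, adjusted p = 0.0244), while the main probe was lower (-1.34). The second probe of Col3a1 differed by 1.33 between KO and WT at 15 days (adjusted p = 0.0037) and by -0.07 at 49 days, unlike the main probe. One of 3 other Dcn probes was higher by 1.35 in KO at 15 days (adjusted p = 0.00934). Another probe of Col24a1 was higher in KO by 0.91 at 49 days (adjusted p = 0.00983), and one of Col27a1 had a difference of -0.40 that did not pass. At that age probes of Col17a1 (-0.36), Col6a2 (0.08), Col4a6 (0.32) and Col26a1 (-0.14) did not pass either, unlike the main probes. A further Col17a1 probe was higher like the main one (0.87). For the difference, probes of Dcn (0.22), Lamc3 (0.76), Col4a4 (0.6 and 0.72), Col6a2 (-0.11) and Col26a1 (-0.26) did not pass. Further probes of Dcn and Lamc3 did.

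The 4 slides each held arrays of all groups. The median difference of the members between KO and WT at 49 days was 0.75, 0.79, 0.39 and 1.19 on slides 1 to 4. Of the 44 members called for adults, 40 kept one sign over the 4 slides, and the exceptions were Col14a1, Col25a1, Col9a1 and Eln. At 15 days the 3 called members kept one sign too. The calls came from these same arrays, so the signs per slide are a description and not a separate check. With the slide as a block the counts were 43 at 49 days, 3 at 15 days, 46 for age in WT, 39 for age in KO and 25 for the difference.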

How the data were processed

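The authors deposited bead summary intensity values of 45278 probes and 956 control rows on 24 arrays, linear and not normalised, and a table of log2 values that equals their quantile normalised log2 intensities to within 3.62e-05, judged from the values. RNA was amplified into biotin-labelled complementary RNA, per the labels' protocols; scanner software is not given in the sources used here. The intensity values were background-corrected with normexp from 946 dim control rows (offset 16) and quantile normalised with limma 3.58.1 in R 4.3.3. Detection p columns were empty, so the share of 0.5 of probes with the highest mean (22639) was tested. A probe was above background where fewer than 1% of dim control rows were brighter. Where a group had no such array, a fold was bounded with the dimmest probe that passed this limit on an array, or the gene's own value where higher. One model with 4 group means on 24 arrays (limma, 20 residual degrees of freedom) gave two-sided p-values adjusted by Benjamini-Hochberg over all tested probes, with a threshold of 0.05. Replicate letters did not pair samples: deviations of same-lettered arrays correlated from -0.21 to 0.39, and at most 2 of 6 pairs in a pair of groups exceeded 0.1.

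Gene names came from the platform annotation, updated through gene identifiers: 34885 probes had 1 symbol, 18 several and 10375 are unnamed here. The members, the roles, 7 lists of matrix partners and 14 lists of cell type markers were chosen with earlier results of these data known. Named per comparison and role were up to 4 passing members with the largest rise and fall, or the 2 largest where none passed, every member called at 15 days or against the majority at 49 days, the type IV pairs, members whose other probe gave another call, and up to 3 passing genes per list and direction. Members outside this rule were named after their values were seen. The fit was tested on simulated data. Alternatives were no background correction, an offset of 50, cyclic loess, scale normalisation, other probe filters, slide or replicate blocks, fewer arrays, array weights, probe means and leaving out each array.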

Additional observations from a re-analysis of the deposited data

Results flagged for a closer look

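In the 46 members picked by the naming rule, each of 4 groups of 6 arrays was searched for an array far from the other 5, by Dixon's limit for 6 values. Of the 184 groups, 13 held one, where chance gives about 1 in 20. In KO at 15 days these were replicate C for Col17a1 (8.66, next 8.42), A for Col24a1 (7.04, next 7.44), F for Col3a1 (10.02, next 11.41) and for Lox (8.28, next 9.10), and B for Col9a2 (8.83, next 8.42). KO replicate D of that age was highest for Col4a1 (13.62), Col4a2 (13.28) and Sparc (14.96). In WT at 49 days they were replicate F for Col3a1 (6.65, next 5.76) and E for Lamc3 (9.15, next 8.87). In KO at 49 days they were replicate D for Col9a3 (8.94, next 11.65) and for Dpt (8.41, next 6.24) and replicate F for Col9a1 (6.37, next 5.78).

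For 28 members the KO effect at 49 days differed from that at 15 days in the test of the difference itself. The log2 differences were more positive at 49 days for Lamb2 2.20, Dcn 1.82, Col4a1 1.79, Lama1 1.70, Col15a1 1.67, Col18a1 1.65, Sparc 1.64, Lamc3 1.55, Col6a1 1.52, Lamc1 1.43, Mfap2 1.40, Col22a1 1.28, Col4a5 1.25, Lamb1 1.23, Col4a4 1.20, Col1a1 1.19, Col6a2 1.06, Col4a2 0.99. They were more negative for Col25a1 -0.74, Col5a2 -0.83, Col6a4 -0.92, Col16a1 -1.02, Col5a1 -1.07, Col14a1 -1.28, Col26a1 -1.48, Col8a1 -1.98, Col23a1 -2.31, Lamb3 -2.36. In Col5a2 both adult groups, and in Col14a1 the adult KO group, were below background, so a KO effect at 49 days was not measured and their values are those of the fit only. The same holds for the size of the values of Lamb3 (both 15-day groups), Mfap2 and Lamb1 (adult WT) and Col25a1 (15-day WT), each with a group below background. The Lamb1 call was lost in 4 alternatives, with an adjusted p of up to 0.129. The adjusted p ran from 2.89e-05 for Col8a1 to 0.0494 for Col6a2.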

How the results depend on the processing

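Counts of called members kept within 1.5 times of those reported under all alternatives run, except at 15 days. There the count of 3 became 8 with only the arrays of the groups compared, 9 with array quality weights, and between 1 and 8 without single arrays. Leaving out single arrays gave 42 to 45 members at 49 days, 45 to 47 for age in WT, 39 to 44 for age in KO and 25 to 34 for the difference. With the replicate letter as a block, although letters did not pair the samples, the counts were 44, 4, 46, 39 and 28 in the order 49 days, 15 days, WT age, KO age, difference. Of 140 called results of members picked by the naming rule, 116 kept direction and call in each alternative that gave a value. Of the 37 alternatives, at least 35 did so for each result, and 31 results lacked a value in 1 or more. The other 24 include Col27a1 at 49 days, whose mean over tested probes gave 0 (adjusted p = 0.99), and Col5a1 for age in WT, which cyclic loess moved to -0.01 (adjusted p = 0.978). Without background correction Col14a1 at 49 days was at -0.21 (adjusted p = 0.105). Calls outside the naming rule are not in this tally. Of those, Lama5 and Lama2 at 49 days were lost in 8 and 1 alternatives, and Lamb1 for the difference in 4. Among members not called in the report, some changed sign without passing. A fit of only the compared arrays does not exist for the difference, which uses all 24. The causes were not tested. Levels near background limit what can be said of Dpt, Lox, Col5a2, Col14a1, Col9a2, Mfap2, Lamb1, Col4a6, Col9a1 and Col25a1 in adult testis, where few arrays measured them. The same holds in adult KO for Col23a1 and Col28a1, each above background on 2 of 6 arrays.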
